A study of Rattus norvegicus with 6 samples.

Results

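Lymphatic vessels drain fluid, immune cells and macromolecules from the heart wall. The growth factor VEGF-C acts through its receptor VEGFR-3 on lymphatic endothelial cells, whose identity is set by the transcription factor Prox1, and these cells carry surface proteins such as Lyve1 and podoplanin and release the chemokine Ccl21, which draws dendritic cells and T cells bearing the receptor Ccr7 into the vessel. The genes described here are Vegfc, Flt4 (the gene of VEGFR-3), Prox1, Pdpn (podoplanin), Lyve1 and Ccl21, which were chosen by name through the gene symbols of the array. Each of the 6 genes had 1 row on the array, out of 15037 named genes and 23188 rows tested. None of the 6 is made by lymphatic endothelium alone: as background, Prox1 is also made by heart muscle cells in the mouse, Lyve1 by tissue macrophages, podoplanin by mesothelial cells and some fibroblasts, and Ccl21 by stromal cells of lymph nodes and thymus.

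Whole hearts of male Sprague-Dawley rats were measured on 6 Clariom S Rat microarrays, which give 1 signal per transcript cluster. The groups were TAC-R hearts (released from TAC), hearts under TAC (transverse aortic constriction: the aorta is narrowed with a silk ligature at its transverse part, which loads the left ventricle) and normal hearts, with 2 arrays each. The rats were 10 weeks old per the surgical protocol, which is shared by all samples and also mentions controls operated on without the ligature. Whether normal hearts were such controls, how long TAC or its release lasted, and whether 2 arrays of a group are 2 animals is not stated. The p-values therefore rest on array-to-array spread alone, which could be technical. Cultured fibroblasts are named as the source in the RNA extraction text, whereas the heart muscle genes Actc1 and Mb were at the ceiling of the log2 signals, 19.93, on all 6 arrays.

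Ccl21 fell in TAC hearts and rose in TAC-R hearts, in which its signal lay within the range of the normal hearts. Lyve1 had the same order of groups and rose in TAC-R hearts against TAC hearts, and its lower signal in TAC hearts against normal hearts did not pass the test. Prox1, the brightest of the 6 genes, was not lower in TAC hearts, and Vegfc, Flt4 and Pdpn did not pass in any comparison. No signal of Ccl21, Flt4, Pdpn or Vegfc passed the 95th percentile of the negative controls, the array's probes for background signal, so only Prox1 and, in part, Lyve1 were measured above background.

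The sequences ahead of the starts of Ccl21 and Lyve1 are shown because these are the members whose signals moved together. Each is the 250 bases before the annotated start, read on the strand of the gene, from RefSeq's GRCr8 annotation. The capitals mark matches to 5 short motifs searched on both strands and chosen with the sequences in view: TATAAA (the TATA box), AGGTCA (bound by nuclear receptors such as Nr2f2), ACAAT (SOX factors), CAGGAA (ETS factors) and CANNTG (the E-box).
Ccl21, chr5:61777516-61777765, minus strand: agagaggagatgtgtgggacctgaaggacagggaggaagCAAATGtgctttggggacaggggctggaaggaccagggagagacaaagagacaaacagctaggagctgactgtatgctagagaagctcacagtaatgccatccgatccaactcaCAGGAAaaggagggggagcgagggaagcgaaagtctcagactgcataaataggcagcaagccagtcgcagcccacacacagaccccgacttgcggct
Lyve1, chr1:174410978-174411227, minus strand: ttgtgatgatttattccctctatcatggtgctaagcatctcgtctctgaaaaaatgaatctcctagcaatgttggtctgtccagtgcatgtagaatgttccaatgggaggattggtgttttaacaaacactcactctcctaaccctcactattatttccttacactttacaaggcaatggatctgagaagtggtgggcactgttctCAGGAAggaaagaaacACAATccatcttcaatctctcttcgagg
The ETS motif occurred once in each, with its first base 97 bases before the start of Ccl21 and 44 bases before the start of Lyve1, and 24.7% of all 33469 promoters of this length held it. Ccl21 also had an E-box at 211 bases, a motif found in 65.5% of promoters, and Lyve1 a SOX motif at 28 bases, found in 30.0%. The marked matches do not overlap each other, and neither window held TATAAA (12.9% of promoters) or AGGTCA (14.1%). G and C made up 54.8% of the bases shown for Ccl21 and 41.6% of those shown for Lyve1. The table of promoters matched 5 of the 6 members, all but Prox1.

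The signals are read against the 1153 negative control rows of the array, because the files hold no detection calls. On the 6 arrays the median of these rows lay between 4.39 and 4.63 log2 units and their 95th percentile between 8.09 and 8.55. Both were highest on the normal arrays, with 95th percentiles of 8.17 and 8.09 on the TAC-R arrays, 8.22 and 8.12 on the TAC arrays and 8.45 and 8.55 on the normal arrays. Over the means of the 6 arrays the 95th percentile was 8.18, and the median of all tested rows was 5.32, so most rows of the array were dim. Of the 6 lymphatic vessel genes only Prox1 had a mean above that percentile.

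**Figure D1:**
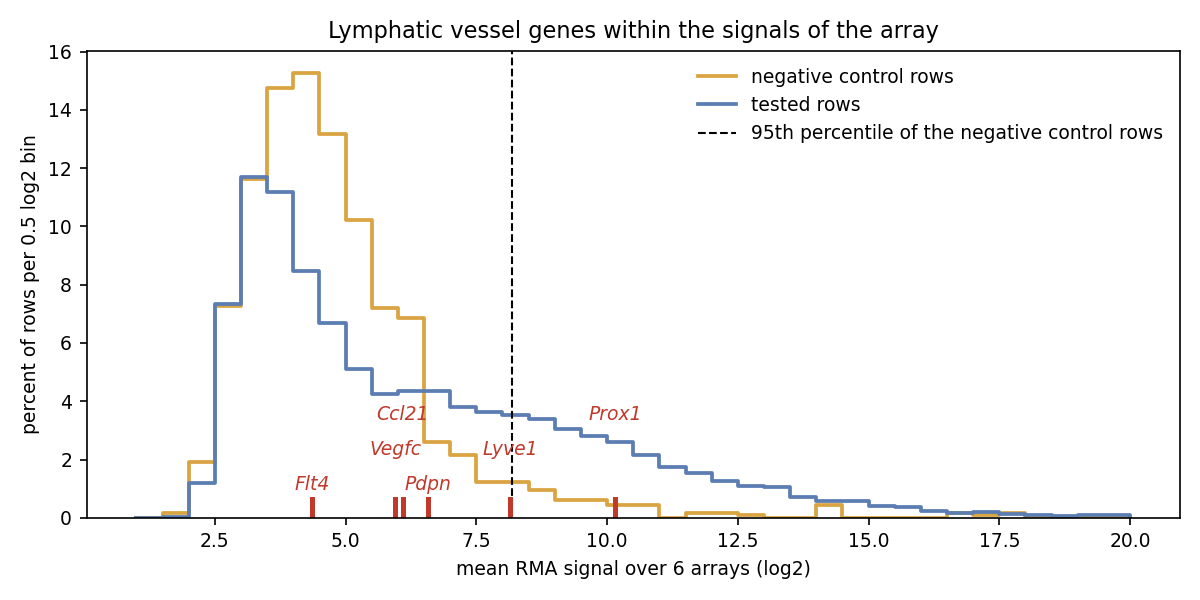
Distribution of row means over the 6 arrays, in percent of rows per bin of 0.5 log2 units, for the negative control rows and the tested rows, with the dashed line at 8.18. The red marks place the 6 lymphatic vessel genes: Flt4 at 4.36, Vegfc at 5.95, Ccl21 at 6.09, Pdpn at 6.58, Lyve1 at 8.14 and Prox1 at 10.16, the last alone to the right of the line.

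Vegfc encodes the growth factor that drives lymphatic sprouting. Its log2 signals were 5.85 and 5.67 in TAC-R hearts, 5.83 and 6.19 in TAC hearts and 6.21 and 5.96 in normal hearts, none of which reached the 95th percentile of the controls. The TAC arrays overlapped with the arrays of both other groups. The difference was -0.07 ± 0.23 log2 units (± standard error of limma's fit, 95% interval -0.60 to 0.45, adjusted p = 0.944) for TAC against normal hearts and -0.24 ± 0.23 (-0.77 to 0.28, adjusted p = 0.761) for TAC-R against TAC hearts. With signals in the background, these intervals describe the array signal and set no limit on the transcript.

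Flt4, the receptor of VEGF-C on lymphatic endothelium, was the dimmest of the members. It had 4.51 and 4.23 log2 units in TAC-R hearts, 4.30 and 3.86 in TAC hearts and 4.86 and 4.39 in normal hearts. Of these arrays only TAC-R replicate 1 and normal replicate 1 passed the median of their negative controls, so Flt4 was not detectable at the sensitivity of this array. The differences, -0.55 ± 0.26 for TAC against normal hearts and 0.29 ± 0.26 for TAC-R against TAC hearts, did not pass (adjusted p = 0.509 and 0.743 in limma's fit).

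Prox1, the transcription factor that lymphatic endothelium needs to keep its identity, was bright on every array. Its log2 signals were 10.21 and 10.05 in TAC-R hearts, 10.49 and 10.38 in TAC hearts and 10.12 and 9.71 in normal hearts. Both TAC arrays lay above all other arrays. The difference was 0.52 ± 0.23 log2 units (95% interval 0.00 to 1.04, adjusted p = 0.481) for TAC against normal hearts and -0.30 ± 0.23 (-0.82 to 0.22, adjusted p = 0.699) for TAC-R against TAC hearts, neither of which passed. The order of the groups for Prox1 was thus TAC, TAC-R and normal by mean, and the TAC-R and normal arrays overlapped.

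Pdpn encodes podoplanin, a mucin-like membrane protein that binds the platelet receptor Clec1b. Its log2 signals were 7.12 and 6.60 in TAC-R hearts, 6.50 and 6.88 in TAC hearts and 6.14 and 6.22 in normal hearts. Both normal arrays were the lowest, and the TAC-R and TAC arrays overlapped. The differences were 0.51 ± 0.26 for TAC against normal hearts, 0.18 ± 0.26 for TAC-R against TAC hearts and 0.68 ± 0.26 (95% interval 0.10 to 1.26) for TAC-R against normal hearts, and none passed (adjusted p = 0.529, 0.854 and 0.404).

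Lyve1 encodes a hyaluronan receptor on lymphatic capillaries that lets leukocytes enter the vessel. Its log2 signals were 9.15 and 8.83 in TAC-R hearts, 6.70 and 7.09 in TAC hearts and 8.76 and 8.30 in normal hearts. Both TAC arrays lay below all other arrays, and both TAC-R arrays lay above both normal arrays. Lyve1 passed the 95th percentile of the negative controls on both TAC-R arrays and on normal replicate 1, and on neither TAC array. Against TAC hearts, TAC-R hearts differed by 2.10 ± 0.26 log2 units (95% interval 1.51 to 2.69, adjusted p = 0.0157), a rise of at least 1.76-fold when the TAC signal is set to the 95th percentile of its own arrays' negative controls. TAC hearts differed from normal hearts by -1.64 ± 0.26 (-2.23 to -1.05, adjusted p = 0.0574), which did not pass. On the same floor the normal mean of 8.53 was 1.28-fold above TAC hearts, with 1 of the 2 normal arrays above its own 95th percentile. That percentile was itself higher on the normal arrays (8.45 and 8.55) than on the TAC arrays (8.22 and 8.12). The 1.28-fold therefore sets no lower bound on the change in transcript. TAC-R hearts differed from normal hearts by 0.46 ± 0.26 (-0.13 to 1.05, adjusted p = 0.568). The TAC-R against TAC call was lost when any TAC-R or TAC array was left out, with adjusted p = 0.108 and 0.0996 without TAC-R replicates 1 and 2 and 0.169 and 0.0981 without TAC replicates 1 and 2.

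Ccl21 had the largest differences of the members in both comparisons with TAC hearts. Its log2 signals were 7.27 and 6.73 in TAC-R hearts, 4.32 and 4.24 in TAC hearts and 7.44 and 6.52 in normal hearts. Both TAC arrays lay just under the median of their negative controls, and the TAC-R and normal arrays lay above 88.7% to 91.8% and 83.4% to 91.4% of the negative controls of their array. No array passed the 95th percentile, so the size of the change in transcript is not measured for Ccl21. The signal fell by 2.70 ± 0.33 log2 units in TAC hearts, at 4.28 ± 0.05 against 6.98 ± 0.65 in normal hearts (mean ± SD, n = 2 each, adjusted p = 0.0154 in limma's fit, 95% interval of the difference -3.44 to -1.96). In TAC-R hearts it was 7.0 ± 0.39, a rise of 2.72 ± 0.33 over TAC hearts (1.98 to 3.46, adjusted p = 0.0151), and it differed from normal hearts by 0.02 ± 0.33 (-0.72 to 0.76, adjusted p = 0.99). The fall in TAC hearts lost its call without normal replicate 1 (adjusted p = 0.116), TAC replicate 1 (0.151) or TAC replicate 2 (0.144). The rise in TAC-R hearts lost it without TAC-R replicates 1 and 2 (0.104 and 0.0779) and without TAC replicates 1 and 2 (0.151 and 0.134).

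**Figure D2:**
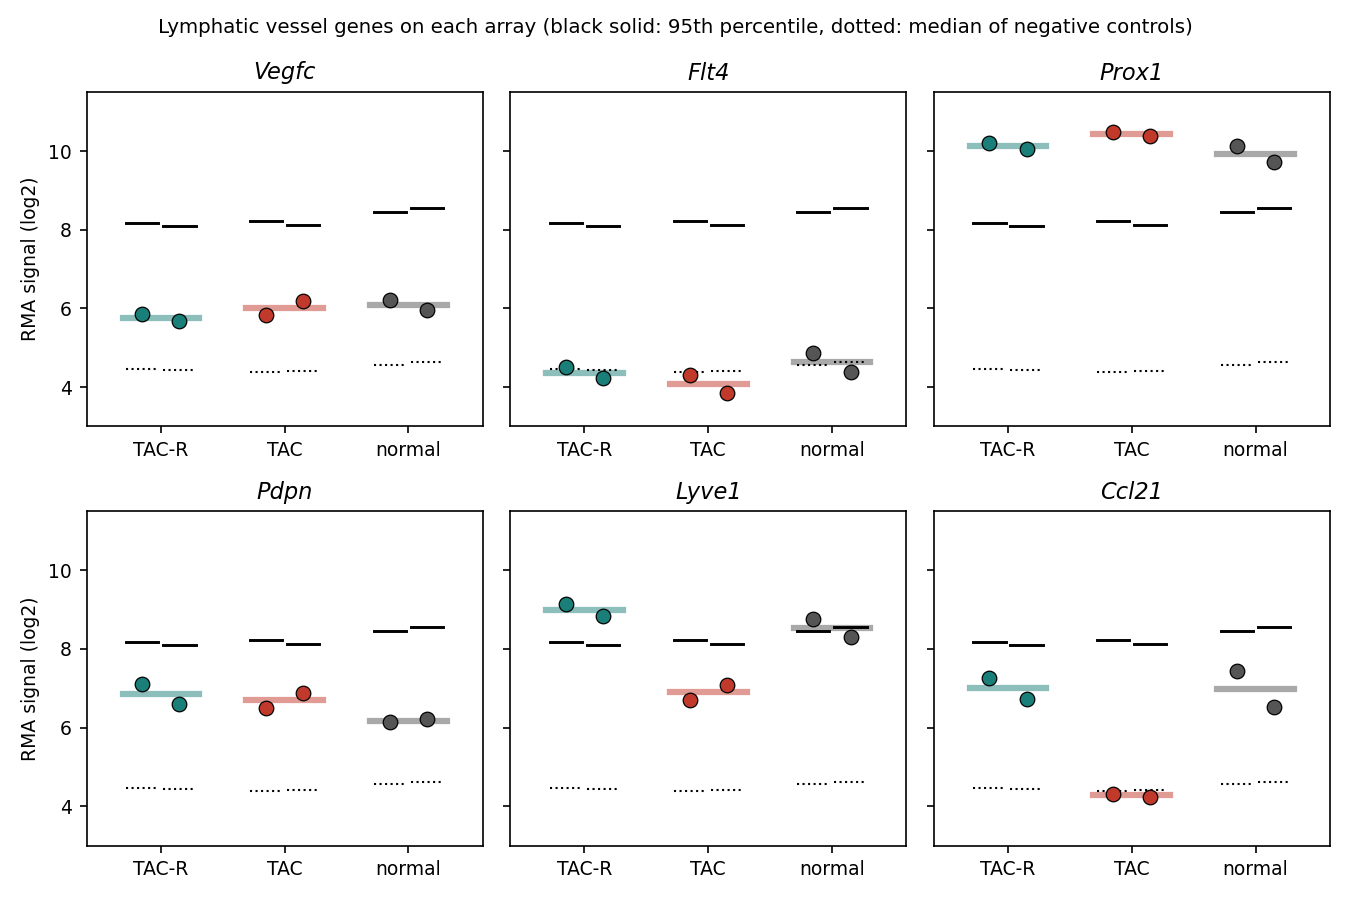
RMA signal on the log2 scale for each of the 6 genes, with a point per array and a coloured line at the mean of the 2 arrays of a group, for TAC-R, TAC and normal hearts. Black solid and dotted dashes mark the 95th percentile and the median of the negative controls on that array: Ccl21 sits at the dotted dashes in TAC hearts and between the dashes in the other groups, Lyve1 drops below the solid dash in TAC hearts, and Prox1 stays above it on all 6 arrays.

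Of the 6 members limma called 1 lower and 0 higher in TAC hearts than in normal hearts, where it called 0.254% of all rows, 0.0647% lower and 0.19% higher. At an unadjusted p under 0.05 there were 3, Ccl21, Lyve1 and Prox1, against 10.3% of all rows. The arrays of TAC and normal hearts did not overlap for 5 members, 2 higher and 3 lower in TAC hearts, against 43.3% of all rows, 21.9% higher and 21.3% lower. In TAC-R against TAC hearts 2 members were called higher and 0 lower, against 0.431% of all rows, 0.224% higher and 0.207% lower. The same 2 had an unadjusted p under 0.05, against 11.0% of all rows, and 3 did not overlap, 2 higher and 1 lower, against 40.5%, 20.1% higher and 20.4% lower. In TAC-R against normal hearts limma called 0 members, against 0.0906% of all rows, 0.0604% higher and 0.0302% lower. There Pdpn alone had an unadjusted p under 0.05, against 10.7% of all rows, and 3 members did not overlap, Lyve1 and Pdpn higher and Vegfc lower, against 40.9%, 20.6% higher and 20.3% lower. Counts of members without overlap were thus near the background share in the comparisons of TAC-R hearts. Prox1, Flt4 and Vegfc differed between TAC-R and normal hearts by 0.22 (95% interval -0.30 to 0.74), -0.26 (-0.85 to 0.34) and -0.32 (-0.85 to 0.21), and none passed. The median difference of the members was -0.31, 0.23 and 0.12 in the 3 comparisons in this order, against 0.00 over all rows each time. The comparisons share arrays, since TAC hearts enter both of the first, so a low TAC signal gives a fall in the first and a rise in the other from the same arrays.

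**Figure D3:**
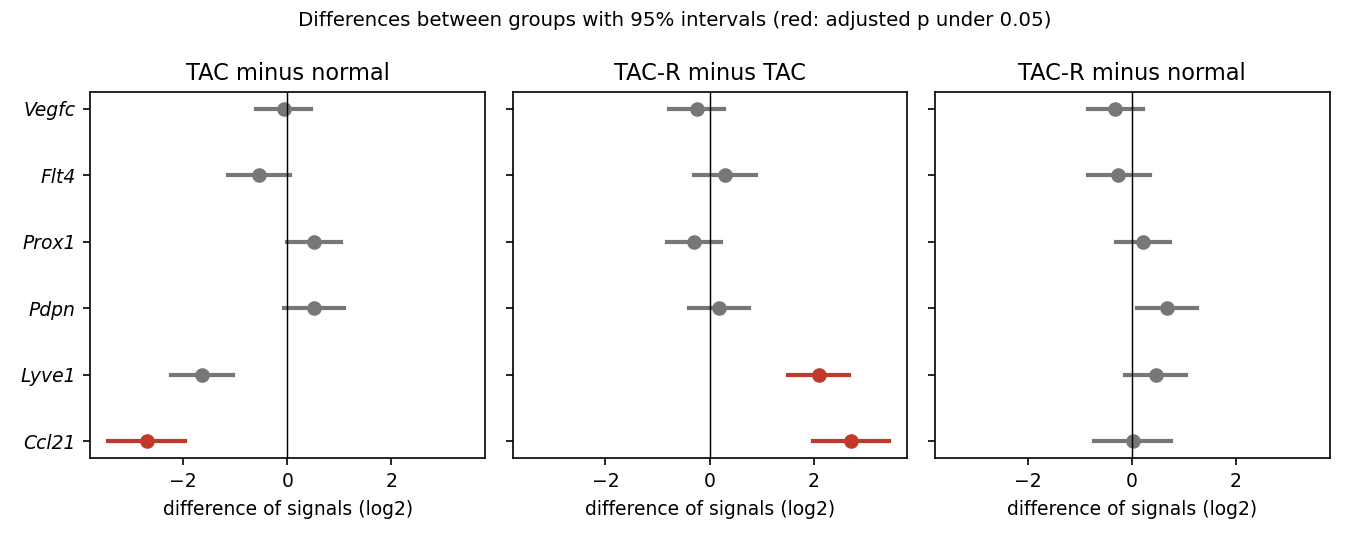
Difference of the log2 signals (points) with 95% intervals of limma's fit (lines) for the 6 genes in the 3 comparisons, in red where the adjusted p is under 0.05. Ccl21 is red on the left of 0 for TAC against normal hearts (-2.70) and on the right for TAC-R against TAC hearts (2.72), where Lyve1 is red as well (2.10), and no gene is red for TAC-R against normal hearts.

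Genes with the most similar pattern over the 6 arrays were sought among the other named genes whose mean passed the 95th percentile of the negative controls, by Pearson's r given as a measure of likeness without a test. For Lyve1 these were Wsb2 (r = 0.995), Hspb3 (0.99), Rab3ip (0.986), Zc3h14 (0.981) and Anp32e (0.98). For Ccl21 they were Ttc1 (0.976), Herpud1 (0.972), Myh7, Wsb2 and Abhd16a (0.971 each). Myh7, the slow myosin heavy chain, was lowest in TAC hearts, at 17.87 and 17.76 log2 units. It was at or near the ceiling of 19.93 in TAC-R hearts (19.93 and 19.91) and in normal hearts (19.91 and 19.93). Of 4577 genes compared, 1.42% had an r above 0.9 with Ccl21 and 1.90% with Lyve1, and for both genes the TAC arrays stand apart from the other 4. Between Ccl21 and Lyve1 themselves r was 0.969. Prox1 was most like Elavl1 (0.994), Fndc5 (0.991), Nelfb (0.988), Abhd4 and Tmem47 (0.986 each). The nearest gene to Flt4 was Homer2 (0.998), to Pdpn Stub1 (0.99) and to Vegfc Rpl4 (0.956), for signals of the members that lay in the background.

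The wider pathway was followed through 71 further genes of lymphatic growth and function, of which 58 were named on the array and 23 had a mean above the 95th percentile of the negative controls. Limma called 0 of the 58 in TAC against normal hearts, 1 higher and 1 lower in TAC-R against TAC hearts and 0 in TAC-R against normal hearts. At an unadjusted p under 0.05 there were 8, 16 and 14 of the 58 in these comparisons, against 10.3%, 11.0% and 10.7% of all rows. In TAC-R against TAC hearts 25 of the 58 were lower and 8 higher without overlap, against 20.4% and 20.1% of all rows, and in TAC-R against normal hearts 25 and 5, against 20.3% and 20.6%. In these 2 comparisons the 12 further genes listed for lymphatic endothelium had 4 lower and 3 higher, then 3 and 1. The 12 genes of growth, valves and junctions had 6 lower and 2 higher, then 8 and 0. The 9 measured blood endothelial markers, which are not among the 58, had 7 lower and 0 higher, then 4 and 0. The lower counts were thus not particular to the lymphatic lists. The median difference of the 58 was 0.09, -0.26 and -0.24 in the 3 comparisons, against 0.00 over all rows. The rise was that of Hyal1, a hyaluronidase that cuts the ligand of Lyve1, with 12.30 and 12.35 log2 units in TAC-R hearts, 10.30 and 10.41 in TAC hearts and 11.30 and 11.09 in normal hearts. It rose by 1.97 ± 0.21 in TAC-R hearts over TAC hearts (adjusted p = 0.00951), with no overlap between any of the groups. Hyal1 lost this call without any TAC or TAC-R array in turn (adjusted p = 0.113, 0.0981, 0.0664 and 0.0806 without TAC replicates 1 and 2 and TAC-R replicates 1 and 2). The fall was that of Ackr3, a scavenger receptor that takes up adrenomedullin and Cxcl12, at 8.70 and 8.54 in TAC-R hearts, 10.00 and 10.03 in TAC hearts and 9.44 and 9.01 in normal hearts, with a difference of -1.40 ± 0.23 between TAC-R and TAC hearts (adjusted p = 0.0486). Ackr3 passed in 0 of the 6 fits that left out an array, with adjusted p up to 0.279.

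Among the ligands and receptors of the VEGF-C pathway 0 of 8 measured genes passed in any comparison. Vegfd, the other ligand of VEGFR-3, had 6.90 and 7.29 log2 units in TAC-R hearts, 8.27 and 7.78 in TAC hearts and 7.54 and 7.40 in normal hearts, with both TAC arrays the highest (adjusted p = 0.496 for TAC against normal hearts and 0.214 for TAC-R against TAC hearts). Nrp2, a co-receptor of VEGFR-3, had 7.77 and 7.57 in TAC-R hearts, 8.97 and 8.26 in TAC hearts and 8.33 and 8.54 in normal hearts. Its TAC-R arrays were the lowest, with a difference of -0.95 from TAC hearts that did not pass (adjusted p = 0.24). Pgf, a ligand of the related receptor VEGFR-1, was in the background, at 4.36 and 4.30 in TAC-R hearts, 3.94 and 4.49 in TAC hearts and 4.57 and 4.71 in normal hearts. Kdr, the gene of VEGFR-2, was bright and lowest in TAC-R hearts, at 11.56 and 11.06 there, 12.00 and 11.82 in TAC hearts and 12.17 and 12.43 in normal hearts (named for its role, adjusted p = 0.426 for TAC-R against TAC hearts and 0.259 for TAC-R against normal hearts).

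Of 10 measured lymphatic transcription factors 0 passed in any comparison, and Nr2f2 alone had a mean above the 95th percentile. Sox18, which turns on Prox1 in embryonic veins of the mouse, had 7.17 and 7.31 in TAC-R hearts, 7.26 and 6.99 in TAC hearts and 6.73 and 6.64 in normal hearts. Both normal arrays were the lowest (adjusted p = 0.52 for TAC against normal hearts). Klf2, a flow-responsive factor of endothelium, had 6.83 and 6.75 in TAC-R hearts, 7.21 and 7.44 in TAC hearts and 7.40 and 7.26 in normal hearts (adjusted p = 0.409 for TAC-R against TAC hearts). Foxc2, which lymphatic valves need, and Hhex lay below the median of the controls on every array.

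The label of the 6 genes was checked against 12 further genes listed for lymphatic endothelium, of which 2, Tspan18 and S100a1, had a mean above the 95th percentile and 0 passed in any comparison. Which cells of the whole heart gave these 2 signals was not tested. Stab2, Cldn11, Nts and Thy1 were under the median of the controls on all 6 arrays. Tspan18, a tetraspanin also found in blood endothelium, had 13.87 and 13.13 in TAC-R hearts, 14.63 and 14.46 in TAC hearts and 13.96 and 13.69 in normal hearts. Its TAC arrays were the highest, and its differences did not pass (adjusted p = 0.44 for TAC against normal hearts and 0.207 for TAC-R against TAC hearts). Reln, a secreted glycoprotein of lymphatic endothelium, had 5.82 and 5.41 log2 units in TAC-R hearts, 5.34 and 4.81 in TAC hearts and 6.24 and 6.01 in normal hearts. Its TAC arrays were the lowest, at signals in the background, with a difference of -1.06 from normal hearts that did not pass (adjusted p = 0.247). With Flt4 at the median of the controls and these genes mostly in the background, the array gave little signal for lymphatic endothelium. Lyve1 and Prox1, which other cells make as well, cannot be assigned to it in whole heart RNA. In such RNA fewer lymphatic cells and less of a transcript per cell cannot be told apart.

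Of 12 measured genes of lymphatic growth, valves and junctions 0 passed in any comparison. Efnb2, an ephrin needed for lymphatic valves in the mouse, had 9.57 and 9.21 in TAC-R hearts, 9.36 and 9.84 in TAC hearts and 10.62 and 10.34 in normal hearts. The normal arrays were the highest (adjusted p = 0.321 for TAC against normal hearts). Angpt1, a ligand of the receptor Tie2, had 10.81 and 11.23 in TAC-R hearts, 11.65 and 11.64 in TAC hearts and 11.62 and 11.75 in normal hearts. Tie1, the partner receptor of Tie2, had 7.42 and 7.22 in TAC-R hearts, 7.98 and 7.90 in TAC hearts and 7.72 and 7.87 in normal hearts. Both were lowest in TAC-R hearts and did not pass against TAC hearts (adjusted p = 0.357 and 0.327). The junction gene Esam had adjusted p = 0.566 for TAC against normal hearts. Cd44, another hyaluronan receptor, named after its values were seen, ran opposite to Lyve1, with 6.77 and 6.62 in TAC-R hearts, 7.74 and 7.70 in TAC hearts and 6.88 and 6.68 in normal hearts. Its differences of 0.94 and -1.03 for TAC against normal and TAC-R against TAC hearts did not pass (adjusted p = 0.191 and 0.108).

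**Figure D4:**
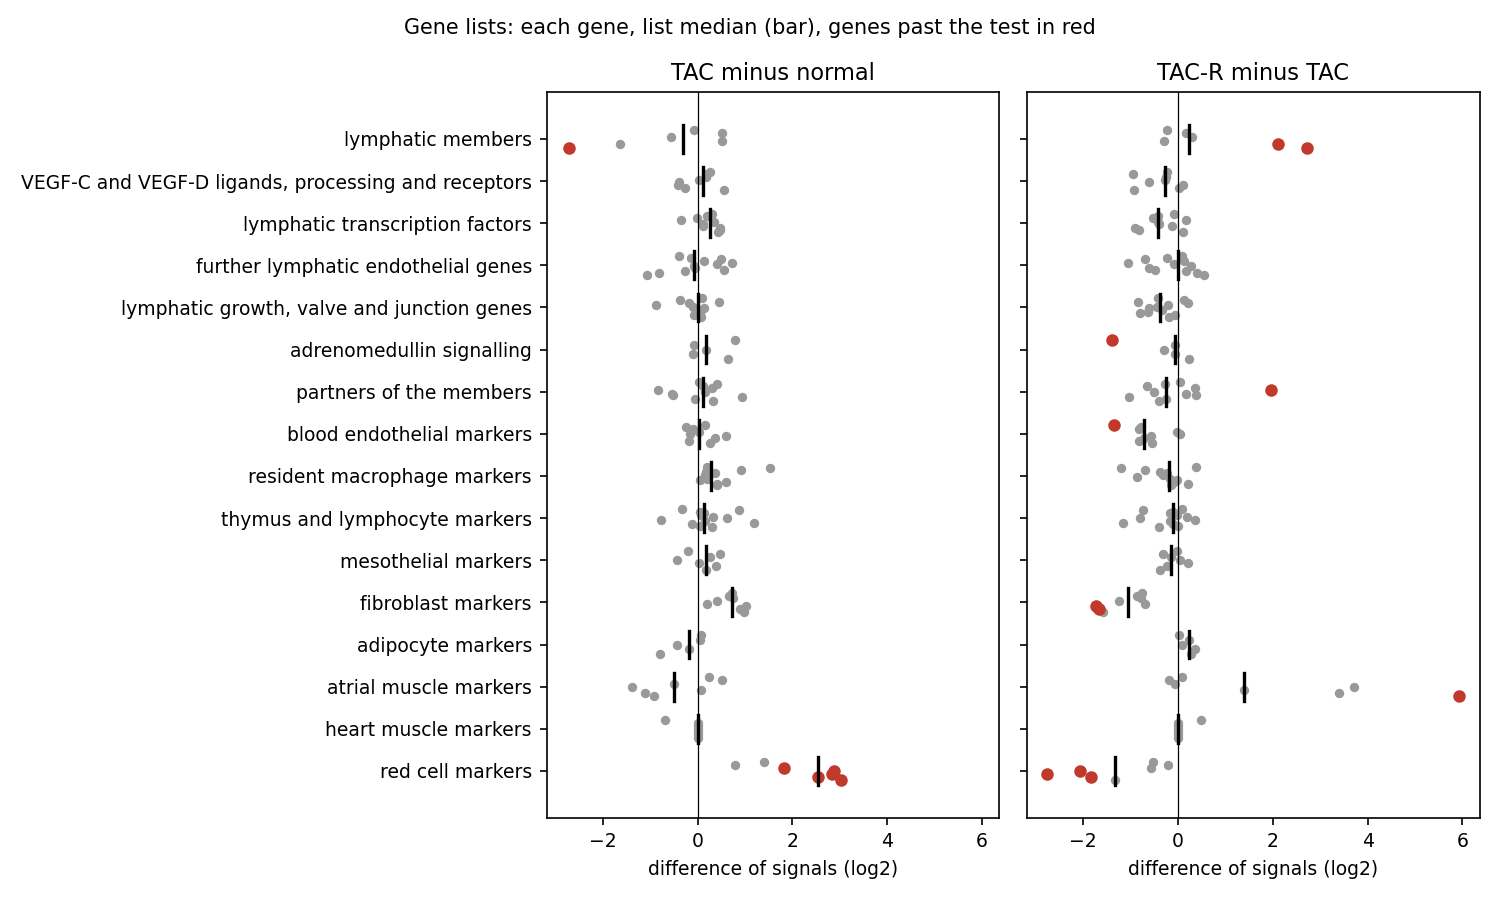
Difference of log2 signals of each measured gene (points), by gene list, for TAC against normal hearts and TAC-R against TAC hearts, with a bar at the median of the list and genes with an adjusted p under 0.05 in red. The 6 lymphatic vessel genes are in the top line (lymphatic members, medians -0.31 and 0.23), where Ccl21 at -2.70 stands apart on the left, while the red points in TAC-R against TAC hearts reach 5.93 for Myl7 among the atrial muscle markers.

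Markers of other cells that could carry these transcripts were measured beside them, and their part in the results was not tested. Of 12 macrophage markers, which belong to cells that can make Lyve1, 0 were called in any comparison. In each comparison 3 of the 12 had an unadjusted p under 0.05, against 10.3% to 11.0% of all rows. Their differences were above 0 for 12 of 12 in TAC against normal hearts (median 0.29) and below 0 for 10 of 12 in TAC-R against TAC hearts (median -0.19). The sum of their linear signals was 2122 to 2449 in TAC-R hearts, 2820 to 2978 in TAC hearts and 2211 to 2530 in normal hearts, and Vsig4 was under the median of the controls on all arrays. Pf4 and C1qa, the brightest of them, had 8.44 and 8.75 and 8.45 and 8.85 in TAC-R hearts, 9.64 and 9.26 and 8.89 and 9.04 in TAC hearts, and 9.43 and 9.14 and 8.92 and 8.71 in normal hearts. Of 9 blood endothelial markers 0 passed in TAC against normal hearts (1 unadjusted, median difference 0.03), and 1 fell in TAC-R against TAC hearts. In that comparison 6 of the 9 had an unadjusted p under 0.05 (11.0% of all rows) and 7 were lower without overlap (20.4% of all rows), with a median of -0.71. That was the apelin receptor gene Aplnr, at 9.93 and 9.70 in TAC-R hearts against 11.22 and 11.09 in TAC hearts (difference -1.34 ± 0.21, adjusted p = 0.0439), a call made in 0 of 6 fits that left out an array. The summed signals of these markers were 39037 to 55828 in TAC-R hearts, 80124 to 81025 in TAC hearts and 85740 to 93279 in normal hearts, of which Cdh5 and Fabp4 were the brightest.

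Thymus and fat lie next to the aortic arch. Of 13 thymus and lymphocyte markers 1, Cd4, had a mean above the 95th percentile of the controls, and Cd3e, Cd3d, Cd3g, Cd8a, Dntt, Lck and Cd79b lay below the median of the controls on all arrays. Their summed signal was 796 to 1459 in TAC-R hearts, 2040 to 2302 in TAC hearts and 999 to 1105 in normal hearts, and most of it was Cd4, which rat macrophages make as well. Cd4 had 10.31 and 9.24 log2 units in TAC-R hearts, 11.01 and 10.84 in TAC hearts and 9.87 and 9.61 in normal hearts, highest in TAC hearts. The median difference of the list was 0.13 in TAC against normal hearts and -0.11 in TAC-R against TAC hearts, and Cd8b, named after its values were seen, had -0.78 and 0.37, which did not pass. Of 5 adipocyte markers 0 had a mean above that percentile, Lep, Cidec and Retn lay below the median of the controls on all arrays, and the sum was 78 to 80 in TAC-R hearts, 67 to 68 in TAC hearts and 71 to 88 in normal hearts, lowest in TAC hearts. Limma called 0 genes of these lists in TAC against normal or TAC-R against TAC hearts (4 and 2 thymus and lymphocyte markers and 1 and 0 adipocyte markers at an unadjusted p under 0.05). At that unadjusted p there were 10.3% and 11.0% of all rows in these 2 comparisons.

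Of 7 atrial muscle markers 1, Myl7, passed in TAC-R against TAC hearts (4 unadjusted) and in TAC-R against normal hearts (5 unadjusted), and 0 passed in TAC against normal hearts (1 unadjusted). Of all rows 11.0%, 10.7% and 10.3% had an unadjusted p under 0.05 in these comparisons, in this order. Myl7, the atrial regulatory light chain, had 14.30 and 12.54 log2 units in TAC-R hearts, 7.48 and 7.51 in TAC hearts and 8.40 and 8.43 in normal hearts, and rose over TAC hearts (adjusted p = 0.00315) and over normal hearts (adjusted p = 0.0105). The first call was lost without TAC replicate 2 (0.0501) and the other without normal replicate 1 (0.15) or 2 (0.218). The summed signal of the 7 atrial markers was 10010 to 35802 in TAC-R hearts, 2562 to 2626 in TAC hearts and 2853 to 2959 in normal hearts, with Nr2f1 and Bmp10 below the median of the controls on all arrays. Myl7 and Nppa carried most of the rise of the sum in TAC-R hearts. Nppa, the gene of atrial natriuretic peptide, had 13.69 and 11.26 in TAC-R hearts, 8.60 and 8.92 in TAC hearts and 9.97 and 10.32 in normal hearts (adjusted p = 0.0527 for TAC-R against TAC hearts). Myl4 and Sln, with means below the 95th percentile of the controls, were also higher without overlap in TAC-R hearts than in both other groups. Neither passed against TAC hearts (adjusted p = 0.126 and 0.385 in limma's fit) or against normal hearts (0.339 and 0.396). Thus 4 of the 7 markers were higher in TAC-R than in TAC hearts without overlap, against 20.1% of all rows. The others, Tbx5, Nr2f1 and Bmp10, differed by -0.18, -0.06 and 0.09 between TAC-R and TAC hearts and did not pass. The sum was higher in TAC-R than in TAC hearts, as Lyve1 and Ccl21 were. It was also higher in TAC-R than in normal hearts, between which Ccl21 and Lyve1 differed by 0.02 and 0.46 and did not pass.

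Fibroblasts and mesothelial cells can make podoplanin. Of 8 fibroblast markers 0 passed in TAC against normal hearts (6 unadjusted, median difference 0.73) and 2 fell in TAC-R against TAC hearts, Col1a2 and Col3a1, each a call made in 0 of 6 fits that left out an array. Of all rows 10.3% had an unadjusted p under 0.05 in TAC against normal hearts. In TAC-R against TAC hearts 8 of the 8 markers had an unadjusted p under 0.05 and were lower without overlap. Their median was -1.06, against 11.0% and 20.4% of all rows for the 2 counts. Their summed signal was 91043 to 118581 in TAC-R hearts, 178927 to 190759 in TAC hearts and 131750 to 167097 in normal hearts, lowest in TAC-R hearts. Of 7 mesothelial markers 0 had a mean above the 95th percentile of the controls and 0 passed (0 unadjusted), with sums of 117 to 132 in TAC-R hearts, 128 to 159 in TAC hearts and 110 to 142 in normal hearts. Msln, Upk1b, Krt19, Krt8 and Krt18 lay below the median of the controls on all arrays.

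Red cell markers are a sign of the blood left in the tissue. Of 7 measured, 5 rose in TAC against normal hearts and 3 fell in TAC-R against TAC hearts, Slc4a1, Hbb-b1 and Hbb-bs in both. Of all rows 0.19% were called higher in the first comparison and 0.207% lower in the other. Without TAC replicate 2 none of the 5 rises passed (adjusted p from 0.0503 to 0.134), and without TAC replicate 1 none of the 3 falls did (0.0508 to 0.156). In TAC-R against normal hearts Alas2, the first enzyme of heme synthesis in red cells, rose by 1.70 (adjusted p = 0.0493), a call made in 0 of 6 fits that left out an array (0.105 to 0.436). Their summed signal was 1322531 to 1415965 in TAC-R hearts, 1801349 to 1870871 in TAC hearts and 782272 to 829125 in normal hearts. The sum includes Hba-a1, whose signal reached the ceiling of 19.93 in both TAC hearts. It was highest in TAC hearts, where Lyve1 and Ccl21 were lowest. The sum was also higher in TAC-R than in normal hearts, between which Ccl21 and Lyve1 differed by 0.02 and 0.46 and did not pass.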

How the data were processed

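The deposited log2 values are RMA signals that the authors computed with Expression Console in a core-exon analysis, per the labels; the version run is not given in the sources used here. No further scaling was applied. Because RMA equalizes the arrays' distributions, a general rise or fall of transcripts is invisible, and the number of arrays limits the precision. Of 24834 rows, 1646 control rows were left out of the tests. Gene symbols came from the platform annotation, and where a gene had several rows the brightest was used. Differences were tested with limma 3.58.1 (R 4.3.3), with 1 mean per group over all 6 arrays, 3 residual degrees of freedom and Benjamini-Hochberg adjustment over 23188 rows within each comparison, called at an adjusted p under 0.05. The fit was tested on simulated data. The smallest p of an exact two-sided permutation test on 2 against 2 arrays is 0.33, so none was used. A group with both arrays below the 95th percentile of their negative controls was taken at that percentile for a fold. The fold was given as a lower bound for Lyve1 in TAC-R against TAC hearts only. Summed signals are sums of 2 to the power of the log2 values.

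The 6 members and the lists were chosen with earlier results of these data known. Named genes were all members, the list genes past the test, and otherwise the 2 with the smallest p in TAC against normal and in TAC-R against TAC hearts in a pathway list or the 2 brightest of a marker list; the values of the dimmest of these are not printed. Genes of like pattern were the 5 with the highest r. Of 7 heart muscle markers Actc1, Mb, Myl3 and Pln were at the ceiling on all arrays and Tnnt2 and Tnni3 at a mean of 19.88, so they could show no change; Ryr2 did not pass in any comparison (adjusted p = 0.36 for TAC against normal hearts).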

Additional observations from a re-analysis of the deposited data

How the results depend on the processing

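The direction of Ccl21 and Lyve1 in both comparisons with TAC hearts was the same in all 15 alternatives that gave a value. Most of these could not change it. Both TAC arrays lay below all others, so leaving out 1 array kept the sign. Settings that only drop rows or alter the spread keep the difference itself. For Ccl21 in TAC against normal hearts 11 of 15 passed (adjusted p from 0.00135 to 0.151) and in TAC-R against TAC hearts 10 of 15 (0.000928 to 0.151). For Lyve1 10 of 15 passed in TAC-R against TAC hearts (0.000982 to 0.169) and 5 of 15 in TAC against normal hearts (0.00857 to 0.357), namely with quantile normalization again (-1.75, adjusted p = 0.0394), each array minus its median (-1.61, 0.0285), rows below the median left out (-1.64, 0.0319), an intensity trend (-1.64, 0.00857) and rows at the ceiling on all arrays left out (-1.64, 0.0347). With values floored at the negative control median of each array, Ccl21 had -2.57 (adjusted p = 0.0563) and 2.59 (0.105) and Lyve1 had 2.10 (0.0815) in TAC-R against TAC hearts. That floor differs between arrays, so by construction it gives dim rows small differences with little spread. Leaving out 1 array gave Ccl21 values from -3.16 to -2.24 in TAC against normal hearts and from 2.45 to 2.99 in TAC-R against TAC hearts, and Lyve1 values from 1.90 to 2.29 in TAC-R against TAC hearts. A fit without an array of the group outside the comparison repeated the fit with only the groups compared. The passes counted above are therefore not all separate. Differences near 0 changed sign: Ccl21 in TAC-R against normal hearts (-0.44 to 0.48 with 1 array left out, -0.02 with quantile normalization again), Vegfc in TAC against normal hearts (-0.26 to 0.11) and Pdpn in TAC-R against TAC hearts (-0.08 to 0.44).

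The count of called rows in TAC against normal hearts (59) became 170 with an intensity trend, 39 with control rows kept, 35 with only the groups compared, 9 with the floor and 0 to 35 with 1 array left out, where limma called 0 when TAC replicate 2 was dropped (2025 unadjusted). In TAC-R against TAC hearts the count (100) became 187 with rows below the median left out, 197 with rows under the controls' 95th percentile left out, 344 with a trend, 44 with control rows, 37 with only the groups compared, 55 with the floor and 4 to 37 with 1 array left out. In TAC-R against normal hearts the count (21) became 54 with each array minus its median, 68 and 52 with rows left out as above, 156 with a trend, 10 with control rows, 37 without rows at the ceiling, 12 with only the groups compared, 0 with the floor (2837 unadjusted) and 0 to 12 with 1 array left out (1630 unadjusted without normal replicate 2). In TAC-R against TAC hearts the split of higher and lower calls was 52 and 48, and became 141 and 203 with a trend, 79 and 108 and 80 and 117 with dim rows left out, and 29 and 15 with control rows. The cause was not tested. The numbers of the replicates did not pair the arrays: deviations of same-numbered arrays correlated at 0.0117, -0.0127 and -0.00932. With the replicate block the counts were 36, 47 and 11, and no member changed its call, while Ackr3, Aplnr, Col1a2 and Col3a1 lost theirs in TAC-R against TAC hearts and Alas2 in TAC-R against normal hearts. The mean of all rows of a gene was not run, since each member had 1 row. Signal over background, which of the members only Prox1 had on all 6 arrays, and the number of arrays both limit these results.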
